A study of Mus musculus with 30 samples.

Results

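The bulk RNA sequencing compared B16F10 cells cultured with a STING agonist with B16F10 cells given vehicle. B16F10 is an established mouse melanoma line whose labels give the C57BL/6 genotype, so both groups are 1 line grown alone in culture, although the labels name the tissue as tumor. The members are 6 libraries of 30 samples in the series: 3 libraries of cells kept for 24 h with 225 ug/mL of STING agonist and 3 vehicle libraries of the same line. They were chosen by their titles. The other 18 bulk libraries are B16F10 cells with interferon beta (IFNβ, 1000 U/mL) or interferon gamma (IFNγ, 100 ng/mL) for 24 h and the same 4 groups of 6694c2, a mouse pancreatic ductal adenocarcinoma line, and 6 single-cell samples were not analysed here. The labels do not say what the vehicle was, nor that the 3 libraries of a group came from separate cultures, so the p-values measure the spread between these libraries, which may be technical.

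STING is an adaptor on the endoplasmic reticulum that binds the cyclic dinucleotide made by cGAS when DNA lies in the cytosol. It then moves to the Golgi and recruits TBK1, which phosphorylates IRF3, and the best known outcome is transcription of type I interferon and of interferon-stimulated genes. Cells under stress have other programs with their own regulators: ATF4 when protein synthesis is restrained, NRF2 under oxidative stress, XBP1 and ATF6 when proteins fold poorly in the endoplasmic reticulum, HSF1 in heat shock, and p53 after DNA damage. SREBP2 acts on cholesterol supply and, like STING, travels from the endoplasmic reticulum to the Golgi to become active. The values below describe those programs, and the genes that fell, rather than the interferon response.

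The 6 libraries held 15543131 to 24019834 reads on genes. A trace of 6694c2 sequence moved with the groups: over 184 genes that 6694c2 cells express and B16F10 cells hardly do, the STING agonist libraries stood at 0.946% to 1.18% of the 6694c2 level and the vehicle libraries at 0.185% to 0.254%. For that reason 1812 genes whose mean over the 12 bulk 6694c2 libraries was more than 10 times that over the 12 B16F10 libraries were left out after the fit, and 152 of those had been called raised and 1 lowered. Of the genes kept and called raised outside the interferon set described next, the difference of 0.748% in this share times the 6694c2 level came to a median of 2.83% of the rise, and for 1 gene, S100a11, the rise was less than 2 times that amount. Markers of melanocytes summed to 20928 to 21077 CPM (counts scaled to the size of each library) in vehicle and 20956 to 21341 CPM with STING agonist, with none of 9 at 0. The epithelial markers summed to 16.4 to 23.1 CPM in vehicle and 114 to 149 CPM with STING agonist before genes were left out, and 5 of 12 were then called raised. Of the T cell markers Cd3d, Cd3e, Cd8a, Trbc1 and Trbc2 were at 0 in the 6 libraries, as were Itgam, Tyrobp and C1qb of the myeloid list, whose other members summed to 12.6 to 17.7 CPM and 16.6 to 18.6 CPM. The B cell list summed to 15.5 to 35.0 CPM in vehicle and 31.5 to 41.5 CPM with STING agonist, and 1 of its 15 members was called raised. Any part of these traces in the results was not tested beyond the values given here.

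With 19326 genes kept, edgeR's quasi-likelihood test called 256 raised, 1.32% of the genes kept, and 323 lowered, 1.67%, at an adjusted p under 0.05. In bulk RNA, a change in every cell and a change in some of the cells cannot be told apart. Large changes were mostly rises. The genes over 2-fold were 36 raised and 5 lowered, and 35 of the 36 belonged to the interferon set, which is a written list of interferon genes together with every gene that IFNβ or IFNγ raised more than 2-fold in either line. The exception was Gm22009, a small Cajal body RNA at under 1 CPM in every library. The set holds 1017 of the 19326 genes kept, and it was partly defined against the same vehicle libraries, so membership and the calls below are not independent. Of the 256 raised genes 154 were in the interferon set, with a median log2 fold change of 0.65, and 102 were outside it, with a median of 0.30, a 1.23-fold rise. The lowered genes had a median of -0.25, 0.844 of the vehicle level, and 10 of the 323 were in the interferon set. The median over the genes kept was -0.0060. For scale, Ccl5, a chemokine that draws T cells, stood at 11.6, 11.2 and 10.6 CPM in vehicle and at 64.6, 71.8 and 72.1 CPM with STING agonist, a log2 fold change of 2.65 ± 0.089 (SE). Ifit1, which binds foreign RNA, rose from 51.8, 60.1 and 58.6 CPM to 261, 263 and 245 CPM. The 5 genes lowered more than 2-fold were Egr1 and, at 1.25 CPM or less in every library, Mgam, Ptgir, Fes and Apol6. Those 4 and Gm22009 were named after their values were seen.

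**Figure D1:**
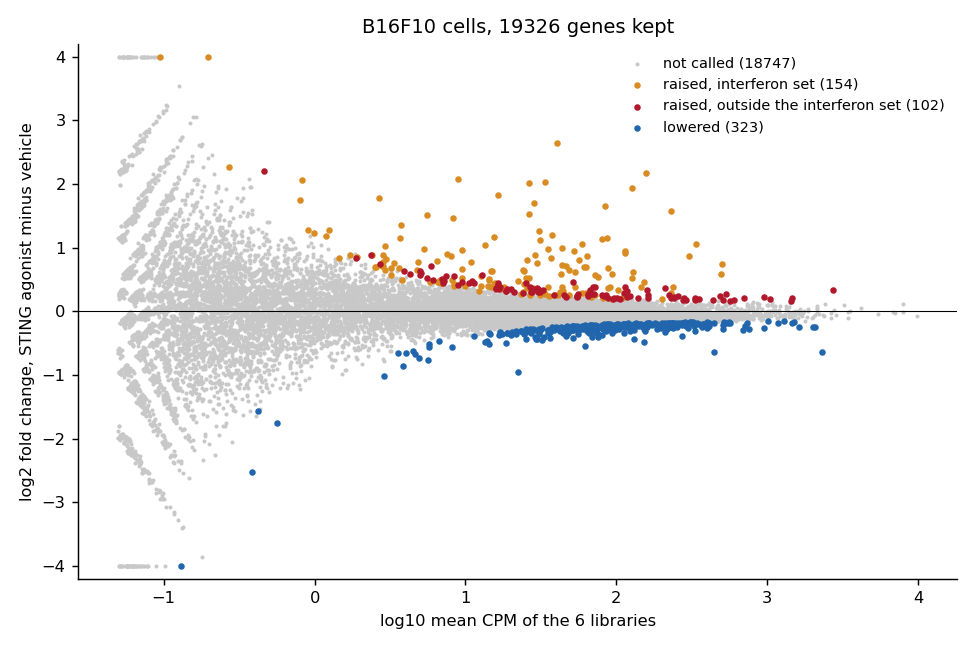
Log2 fold change between STING agonist and vehicle (vertical axis, held to 4 either way) against the log10 mean CPM of the 6 libraries (horizontal axis) for the genes kept, 1 point a gene, with genes under 0.05 CPM not drawn. The 154 raised genes of the interferon set reach highest, while the 102 raised outside it and the 323 lowered lie in thin bands near 0.

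The values of the 3 vehicle and the 3 STING agonist libraries did not overlap for 91 of the 102 genes raised outside the interferon set and for 311 of the 323 lowered, against 8.21% of the genes kept that were higher without overlap and 11.1% that were lower. Genes named below for the smallest p or the largest change were drawn only from called genes without overlap. For these the separation of the groups was fixed by that choice. With 3 libraries a group, the exact permutation test of a single gene cannot go below 0.1, so the calls rest on the spread that edgeR shares across genes. Leaving out 1 library at a time gave 45 to 83 genes raised outside the set, with 45 both without vehicle replicate 1 and without STING agonist replicate 3, 62 without STING agonist replicate 1, and 63 without vehicle replicate 2 or STING agonist replicate 2. The lowered genes came to 127 without STING agonist replicate 3, 163 without vehicle replicate 2, 167 without vehicle replicate 1, 188 without STING agonist replicate 2, 196 without STING agonist replicate 1 and 218 without vehicle replicate 3. The lowered genes were also richer in G and C: their median transcript GC content was 54.1%, against 48.1% for the genes raised outside the set and 49.3% for the genes kept at 10 CPM or more. Across 5 equal groups of these genes ordered by GC content, the median log2 fold change went from 0.016 in the lowest to -0.079 in the highest. In that highest group the 3 vehicle libraries deviated from the mean by 0.031 to 0.046 and the STING agonist libraries by -0.017 to -0.062 on the log2 scale, farthest in STING agonist replicate 3. With each library adjusted for this trend, 351 genes were raised and 199 lowered, so the raised share of all calls went from 44.2% to 63.8%, and 97 of the 102 and 177 of the 323 were still called.

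Of the written lists, that of cholesterol synthesis held the most genes raised outside the interferon set. Of 32 kept members of the cholesterol and fatty acid list 11 rose and none fell by edgeR, where 1 was lower at an unadjusted p under 0.05 and DESeq2 called none lowered, with a median log2 fold change of 0.15. Those raised included Hmgcs1, Idi1, Fdps, Fdft1, Cyp51, Msmo1, Nsdhl, Hsd17b7, Insig1 and Scd1. Hsd17b7 belongs to the interferon set and the other 10 raised members do not, and with the GC adjustment 14 rose. Hmgcs1, which condenses acetoacetyl-CoA and acetyl-CoA at the head of the mevalonate pathway, had the smallest p of the genes raised outside the set. It stood at 95.7, 102 and 99.4 CPM in vehicle and 127, 129 and 133 CPM with STING agonist, 1.31-fold higher, a log2 fold change of 0.39 ± 0.06 (SE) (adjusted p = 4.78e-08). Every STING agonist library was above every vehicle library. Fdps, which makes farnesyl diphosphate further along that pathway, measured 137, 142 and 145 CPM in vehicle and 188, 176 and 174 CPM with STING agonist (0.34 ± 0.057 (SE), adjusted p = 8.56e-07).

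Enzymes of the branch that leads only to sterols were also among those called. Fdft1, squalene synthase, went from 58.6, 55.9 and 62.1 CPM to 73.1, 73.6 and 75.7 CPM (0.33 ± 0.066 (SE), adjusted p = 8.66e-05). Msmo1, which removes methyl groups from the sterol ring, went from 102, 105 and 107 CPM to 133, 132 and 128 CPM (0.32 ± 0.059 (SE), adjusted p = 1.08e-05). Cyp51, lanosterol demethylase, went from 199.7, 202 and 207 CPM to 255, 241 and 236 CPM (0.26 ± 0.055 (SE), adjusted p = 0.000204). For each of these the groups were apart, and the rises were alike in size, between 1.2-fold for Cyp51 and 1.26-fold for Fdft1. Acat2, cytosolic acetoacetyl-CoA thiolase, which is outside the written list but feeds Hmgcs1, was at 60.2, 59.6 and 67.9 CPM and then 81.8, 78.7 and 84.1 CPM (0.38 ± 0.066 (SE), adjusted p = 2.76e-06). Insig1, which holds the SREBP escort protein in the endoplasmic reticulum, rose 1.18-fold, from 112, 113 and 115 CPM to 126, 135 and 140.4 CPM. It is itself a usual SREBP target, its groups did not overlap, and its call was lost without STING agonist replicate 2 or replicate 3. Idi1 and Insig1 were singled out after their values were seen.

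Other members did not pass the test. Fasn, fatty acid synthase, measured 437, 490.3 and 496 CPM in vehicle and 400.3, 436 and 445 CPM with STING agonist (-0.15 ± 0.053 (SE), adjusted p = 0.107), and Srebf2, the gene of SREBP2 itself, 138, 139.7 and 144 CPM and 137, 141 and 135 CPM. Scd1, a fatty acid desaturase, was raised, from 79.1, 85.5 and 81.4 CPM to 96.3, 96.9 and 91.9 CPM (adjusted p = 0.029). Leaving out 1 library at a time left 7 to 9 of the list raised, the fewest (7) without vehicle replicate 1.

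The interferon libraries set against the same 3 vehicle libraries gave other patterns for this list. IFNβ raised 4 members and lowered 9 (background 13.4% of genes kept raised, 12.2% lowered), and IFNγ raised 21 and lowered 2 (12.6% and 11.7%). Because the comparisons share the vehicle libraries, STING agonist was also compared directly with each interferon. Of the 32 members, 18 were called above the IFNβ level, 1 below it and 13 neither, with a median log2 difference of 0.23. For IFNγ the counts were 4 above, 14 below and 14 neither, with a median of -0.096. Fdft1 was below its IFNγ level, by -0.19 ± 0.065 (SE) (adjusted p = 0.0202). The share of all genes kept was not counted for these contrasts. Insig1 was higher with STING agonist than with IFNβ, by 0.72 ± 0.06 (SE) on the log2 scale (adjusted p = 1.46e-26), and than with IFNγ, by 0.28 ± 0.06 (SE) (adjusted p = 3.82e-05). Fdps was higher than with IFNβ by 0.42 ± 0.057 (SE) (adjusted p = 2.86e-11), whereas against IFNγ the difference was 0.059 ± 0.057 (SE) (adjusted p = 0.574). Acat2 was higher than with IFNβ by 0.55 ± 0.066 (SE) (adjusted p = 9.06e-14). Hmgcs1 was higher than with IFNβ by 0.24 ± 0.059 (SE) (adjusted p = 0.000676) and differed from IFNγ by -0.025 ± 0.059 (SE) (adjusted p = 0.871).

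**Figure D2:**
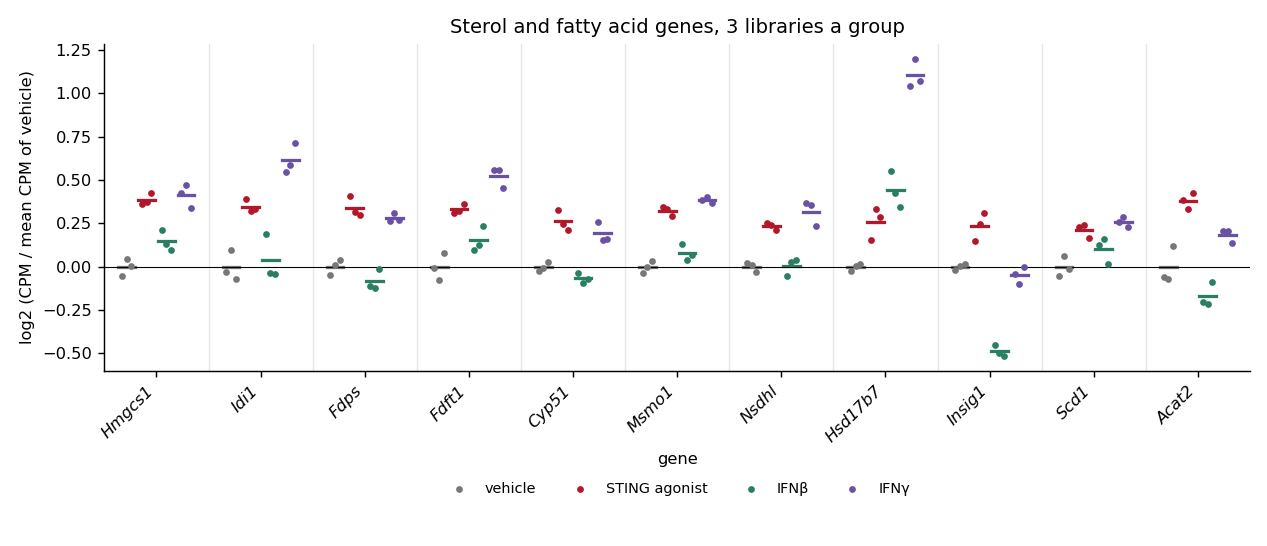
Log2 of the CPM of each library over the mean CPM of the vehicle libraries (vertical axis) for 11 sterol and fatty acid genes (horizontal axis) in B16F10 cells, 3 points a group with a bar at their mean. The STING agonist points lie above 0 for every gene shown, whereas the IFNβ points of Insig1 lie below 0, near its log2 fold change of -0.49 ± 0.06 (SE).

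The region just before the start of Hmgcs1 is shown because it holds the letters of a sterol response element, the kind of sequence that SREBP proteins are known to bind. The search was for TCACNCCAC on either strand in the 250 bases before each RefSeq start (GRCm38.p6). It was found in 1 of the 7 raised genes of this list with a window, Hmgcs1, and in 1.22% of all 27025 genes with a window. Counted by window, it was in 1.05% of 32851 windows of that length. The match, in capitals, begins 137 bases before the start, on the strand of the gene, in chr13:119690101-119690350 (plus strand).
Hmgcs1: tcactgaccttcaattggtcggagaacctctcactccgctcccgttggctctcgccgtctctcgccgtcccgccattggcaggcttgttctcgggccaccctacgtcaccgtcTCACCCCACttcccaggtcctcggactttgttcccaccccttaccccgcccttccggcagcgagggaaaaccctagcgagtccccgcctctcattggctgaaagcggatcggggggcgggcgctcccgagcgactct

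Of the stress lists, that of the ATF4 integrated stress response held the most raised genes. Of 32 members kept, 6 rose (Ddit3, Atf5, Trib3, Chac1, Atf3 and Pck2) and 1 fell (Slc7a5), with a median of 0.12. Ddit3, which encodes the stress transcription factor CHOP, was at 31.9, 33.6 and 32.5 CPM in vehicle and at 56.8, 50.4 and 56.4 CPM with STING agonist, 1.66-fold higher (0.74 ± 0.071 (SE), adjusted p = 9.8e-20). Every library with STING agonist was above every vehicle library. Trib3, a pseudokinase that CHOP induces and that restrains Akt, was at 17.5, 17.3 and 20.9 CPM and then 25.1, 25.2 and 27.2 CPM (0.47 ± 0.089 (SE), adjusted p = 2.1e-05). Chac1, which degrades glutathione, was at 13.4, 11.2 and 14.7 CPM and then 17.4, 16.7 and 19 CPM (0.43 ± 0.10 (SE), adjusted p = 0.00211).

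The other 3 rose less or were less secure. Atf5, a transcription factor of the ATF4 pathway that also serves the mitochondrial stress response, went from 62.7, 63.1 and 56.2 CPM to 77.7, 79.3 and 80.9 CPM (0.39 ± 0.066 (SE), adjusted p = 1.56e-06), without overlap. Atf3, an early stress factor, measured 8.1, 6.3 and 7.15 CPM and 10.7, 8.17 and 9.58 CPM (0.39 ± 0.12 (SE), adjusted p = 0.0382). Pck2, the mitochondrial form of phosphoenolpyruvate carboxykinase, measured 41.9, 45 and 42 CPM and 48.1, 50 and 53.3 CPM (0.23 ± 0.073 (SE), adjusted p = 0.0479). Ddit3, Atf5 and Trib3 were called under each of 15 other settings, Chac1 under all but the one without vehicle replicate 2, Atf3 under 8 and Pck2 under 5. The raised count was 3 without vehicle replicate 2, 4 without either STING agonist replicate 1 or replicate 3, and 12 with the GC adjustment.

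Among the enzymes and transporters of amino acid supply, Slc7a5 was the one called. Asns, asparagine synthetase, a standard ATF4 target, measured 151, 158 and 152 CPM in vehicle and 174, 175 and 172 CPM with STING agonist, without overlap, and missed the threshold (0.17 ± 0.056 (SE), adjusted p = 0.0554); with the GC adjustment it passed. Slc7a5, a transporter of large neutral amino acids that ATF4 usually raises, fell from 206, 217 and 213 CPM to 189, 187 and 175 CPM (-0.21 ± 0.056 (SE), adjusted p = 0.012). That call was lost with the GC adjustment, with all 24 libraries in the fit, and without vehicle replicate 2, vehicle replicate 3 or STING agonist replicate 3. Sesn2, a stress-induced brake on mTORC1, had an adjusted p of 0.262.

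Of the 6 raised genes, Ddit3, Trib3, Chac1 and Atf3 belong to the interferon set, because an interferon raised each of them more than 2-fold in these or in 6694c2 cells. Of the list, IFNβ raised 19 members and IFNγ 13 against the same vehicle libraries, beside 13.4% and 12.6% of the genes kept. Compared directly, Ddit3 was lower with STING agonist than with IFNβ, by -1.18 ± 0.067 (SE) on the log2 scale (adjusted p = 3.82e-50), and differed from IFNγ by -0.026 ± 0.069 (SE) (adjusted p = 0.891). Trib3 was lower than with IFNβ (-0.59 ± 0.083 (SE), adjusted p = 2.17e-10) and than with IFNγ (-0.48 ± 0.084 (SE), adjusted p = 3.27e-07). In the direct comparison with IFNγ 4 of the 32 members were higher in the STING agonist libraries and 9 lower, and in that with IFNβ 0 were higher and 12 lower. The share over all genes kept was not counted for these direct comparisons, so whether these counts exceed it is not known. Atf5 was higher than with IFNγ by 0.45 ± 0.066 (SE) (adjusted p = 1.36e-09), and its level with IFNβ was 79.4 CPM ± 2.36 (SD, n = 3), the direct difference being -0.0019 ± 0.065 (SE).

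**Figure D3:**
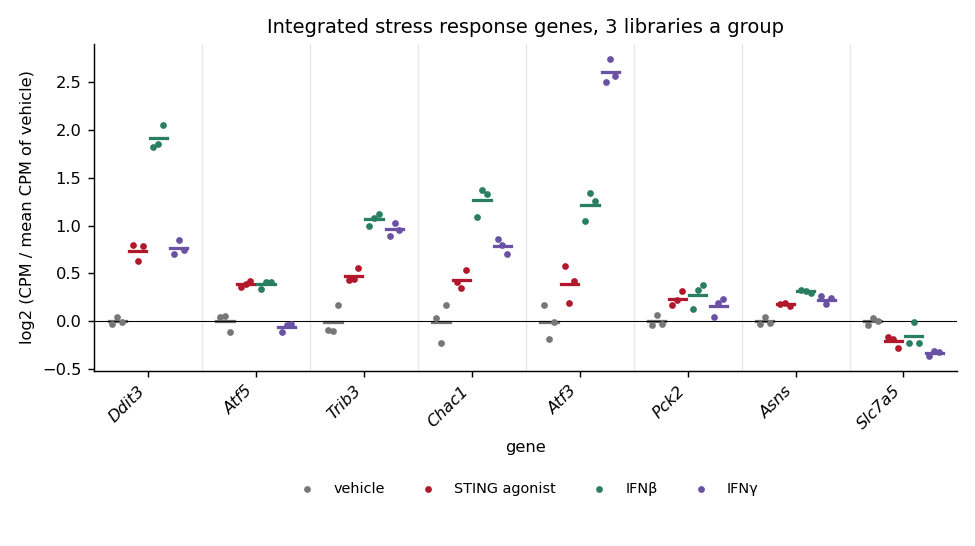
Log2 of the CPM of each library over the mean CPM of the vehicle libraries (vertical axis) for 8 genes of the ATF4 integrated stress response (horizontal axis) in B16F10 cells, 3 points a group with a bar at their mean. Ddit3 stands highest with IFNβ, at a mean of 123 CPM, with STING agonist at a mean of 54.5 CPM.

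The windows before 3 raised genes of this list are shown because each holds TGATGNAA, the core letters of the element that ATF4 and its C/EBP partners bind. On either strand it was in 3 of the 6 raised genes, Atf3, Chac1 and Pck2, and in 5 of the 20 other genes of the list with a window. Of all 27025 genes with a window 3.91% held it, and of the 32851 windows 3.45%. The capitals mark the match, here on the opposite strand, in chr1:191183334-191183583 (minus strand) for Atf3, chr2:119350992-119351241 (plus strand) for Chac1 and chr14:55540016-55540265 (plus strand) for Pck2. For the other raised genes these letters were not in this window. Another pair of lists was searched in the same way. The CArG box, which serum response factor binds, was in none of the 6 lowered immediate early genes with a window and in 3 of the 11 other members. It was in 1.62% of all genes with a window. TTTCCCGC or TTTGGCGC, of the kind that E2F proteins bind, was in 2 of the 8 lowered replication genes, Mcm5 and Mcm7, and in 4 of the 22 other members. Of all genes with a window 1.51% held either.
Atf3: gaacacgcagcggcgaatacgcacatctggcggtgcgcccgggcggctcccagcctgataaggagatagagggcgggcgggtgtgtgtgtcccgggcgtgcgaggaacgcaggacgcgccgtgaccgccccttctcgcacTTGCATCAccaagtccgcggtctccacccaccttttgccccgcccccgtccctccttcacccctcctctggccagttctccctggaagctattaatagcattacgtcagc
Chac1: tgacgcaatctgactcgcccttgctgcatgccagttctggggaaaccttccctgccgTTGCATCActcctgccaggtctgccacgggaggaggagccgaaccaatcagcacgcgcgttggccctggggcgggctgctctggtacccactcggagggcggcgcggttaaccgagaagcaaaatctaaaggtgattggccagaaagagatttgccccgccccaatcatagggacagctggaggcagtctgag
Pck2: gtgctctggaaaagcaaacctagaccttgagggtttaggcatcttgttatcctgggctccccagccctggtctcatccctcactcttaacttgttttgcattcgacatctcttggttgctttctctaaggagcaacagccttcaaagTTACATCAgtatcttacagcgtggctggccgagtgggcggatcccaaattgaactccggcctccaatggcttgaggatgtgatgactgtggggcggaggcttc

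The other stress lists gave few calls or none. Of 28 kept NRF2 targets edgeR and DESeq2 called none raised, with 2 higher at an unadjusted p under 0.05, and 2 fell, with a median of -0.053. Nqo1, the quinone reductase most used to read NRF2 activity, measured 11.8, 12.7 and 12.3 CPM in vehicle and 11.5, 10.7 and 13.6 CPM with STING agonist (adjusted p = 0.94), and Hmox1, heme oxygenase, 62.9, 69.3 and 71.3 CPM and 73.4, 66 and 68.2 CPM (adjusted p = 0.956). In both the groups overlapped. Fth1, the heavy chain of the iron store ferritin, fell from 2219, 2216 and 2243 CPM to 1873, 1887 and 1904 CPM (-0.24 ± 0.047 (SE), adjusted p = 9e-05). Txnrd1, thioredoxin reductase, fell from 443, 449.8 and 429 CPM to 379.8, 379 and 368 CPM (-0.23 ± 0.052 (SE), adjusted p = 0.00121). Both calls held under each of 15 other settings. Gclm, the modifier subunit of the enzyme that starts glutathione synthesis, was lower in each library, 68.2, 71.1 and 71.1 CPM against 61.4, 61.4 and 59.4 CPM, with an adjusted p of 0.0535.

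None of 25 genes of endoplasmic reticulum stress was called by edgeR, and the unadjusted p of 1 higher and of 1 lower gene was under 0.05. Hspa5, the chaperone BiP of the endoplasmic reticulum, measured 1278, 1269.9 and 1283 CPM and 1241, 1197 and 1200.1 CPM (-0.074 ± 0.049 (SE), adjusted p = 0.565). Among the 19 heat shock genes none was called and the unadjusted p again passed for 1 higher and 1 lower gene, with Dnaja1, a cochaperone of Hsp70, at 472, 461 and 495 CPM and 444, 446 and 437 CPM. The 10 metal response genes gave no call either, with 2 higher and 1 lower at the unadjusted level, among them Mt2, a metal-binding metallothionein, at 103, 96.7 and 96.3 CPM and 104, 110.0 and 112 CPM (adjusted p = 0.256). DESeq2 called none of these 3 lists. None of 5 kept targets of the aryl hydrocarbon receptor and none of 30 genes of glycolysis and hypoxia was called by edgeR, with 1 and 3 higher and 0 and 1 lower at the unadjusted level, and DESeq2 called none.

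Of 24 kept p53 targets 3 rose, of which Trp53inp1 is in the interferon set, at sizes close to the limit of the test. Cdkn1a, the cell cycle inhibitor p21, which is the standard p53 readout, measured 587, 577 and 580.5 CPM in vehicle and 631, 639 and 601 CPM with STING agonist, without overlap, and was not called (0.10 ± 0.051 (SE), adjusted p = 0.38). Gadd45a, a DNA damage gene that ATF4 also induces, rose from 22.4, 21.8 and 21.2 CPM to 27.1, 28.5 and 23.7 CPM (adjusted p = 0.0449). Trp53inp1 rose from 69.2, 80.3 and 75.9 CPM to 81.6, 91.9 and 86.9 CPM (adjusted p = 0.0374), and Rps27l from 408, 389.9 and 433 CPM to 463, 458 and 474 CPM (adjusted p = 0.0293). The groups did not overlap in any of these 3, yet without any 1 library at most 1 of the list was called, and none without vehicle replicate 1 or STING agonist replicate 2. DESeq2 called none of them, and Trp53inp1 lost its call with the GC adjustment. Of 20 kept NF-kB targets none rose by edgeR or DESeq2, with 1 higher at an unadjusted p under 0.05, and 1 fell, Nfkb1, the p105 precursor that is also a feedback target, from 67.8, 67 and 62.4 CPM to 55.5, 54.8 and 58.1 CPM (-0.23 ± 0.068 (SE), adjusted p = 0.03). The Nfkb1 call was lost with all 24 libraries in the fit and without vehicle replicate 1, vehicle replicate 2 or any 1 STING agonist replicate.

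**Figure D4:**
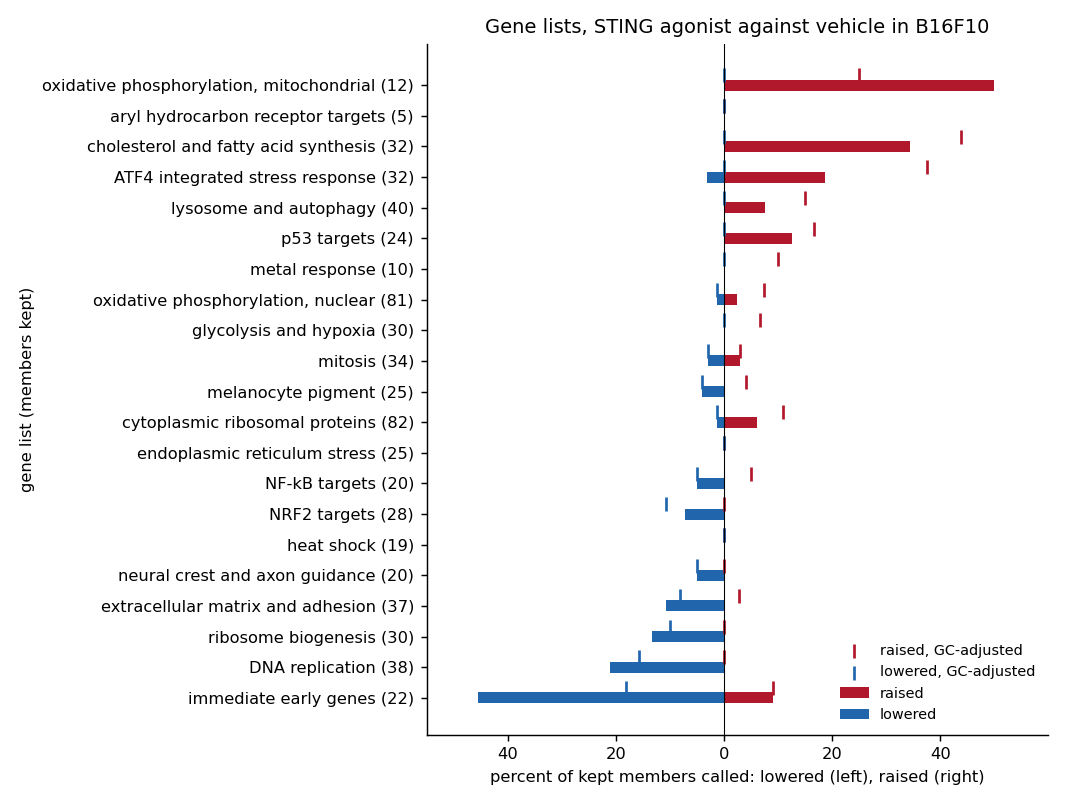
Percent of the kept members of each gene list (vertical axis, members kept in parentheses) that were called raised (right) or lowered (left) with STING agonist against vehicle, with ticks for the same after the GC adjustment. The interferon response list, with 90 of 155 raised, is not drawn. The mitochondrial oxidative phosphorylation list, with 6 of 12 raised but 0 without STING agonist replicate 3, reaches farthest to the right. Among the lists drawn of more than 12 members, cholesterol synthesis and the ATF4 list reach farthest to the right. Immediate early genes, with 10 of 22 lowered or 4 with the GC adjustment, reach farthest to the left.

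Single genes raised outside the interferon set had varied roles. Being outside the set does not mean that interferon left a gene unchanged. Compared directly, 44 of the 102 were higher with STING agonist than with IFNβ, 12 lower and 46 not called. Against IFNγ 42 were higher, 12 lower and 48 not called, and 31 were higher than with both interferons. The 102 were chosen as raised by STING agonist and not raised more than 2-fold by either interferon, so these sides follow in part from that choice. The share over all genes kept was not counted for these direct comparisons. Fam129a, also called Niban, a stress-induced gene linked to translation control, rose from 44.9, 40.3 and 44.8 CPM to 63.4, 55.3 and 60 CPM (0.46 ± 0.071 (SE), adjusted p = 8.76e-08). Against the same vehicle libraries IFNβ gave 0.46 ± 0.07 (SE) for Fam129a, short of the 2-fold limit of the interferon set, and the direct difference from IFNγ was 0.34 ± 0.071 (SE) (adjusted p = 2.52e-05). Nabp1, which binds single-stranded DNA, rose from 21.2, 22.2 and 21.1 CPM to 26.6, 30.8 and 30.2 CPM (0.45 ± 0.088 (SE), adjusted p = 6.52e-05). IFNβ gave 0.51 ± 0.086 (SE) for Nabp1 against the same vehicle libraries, and the direct difference from IFNβ was -0.064 ± 0.085 (SE) (adjusted p = 0.7). Snrnp27, a splicing factor, went from 103, 94.6 and 103 CPM to 118, 120.0 and 131 CPM (0.29 ± 0.06 (SE), adjusted p = 0.000173), and Cycs, cytochrome c, from 884, 822 and 906 CPM to 1047, 994 and 1025 CPM (0.23 ± 0.05 (SE), adjusted p = 0.000442). In these 4 genes every STING agonist library was above every vehicle library, which the rule for naming them required. Rps23-ps1, a pseudogene of a ribosomal protein, was also among the raised genes (0.57 ± 0.12 (SE)), and its reads cannot be told apart with certainty from those of near-identical copies. Cycs and Rps23-ps1 lost their calls with all 24 libraries in the fit.

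The largest rise outside the set among genes of at least 1 CPM was that of Pgf, placental growth factor, a relative of VEGF. It measured 1.43, 1.47 and 2.1 CPM in vehicle and 3.08, 3.58 and 2.61 CPM with STING agonist (0.89 ± 0.24 (SE), adjusted p = 0.0107). Its call was lost with all 24 libraries in the fit and without vehicle replicate 1, vehicle replicate 2 or STING agonist replicate 2. Kif9, a kinesin of cilia, followed at 1.27, 1.3 and 1.51 CPM and 1.86, 2.57 and 2.83 CPM (0.84 ± 0.26 (SE), adjusted p = 0.0479), and was called under 5 of 15 other settings. Of 40 genes of lysosome and autophagy 3 rose and none fell by edgeR or DESeq2, with 1 lower at an unadjusted p under 0.05. Ctsl, the protease cathepsin L, went from 151, 143 and 147 CPM to 179, 173 and 175 CPM (0.26 ± 0.057 (SE), adjusted p = 0.00078) and was called under each of 15 other settings. Npc2, which carries cholesterol out of the lysosome, went from 274, 263 and 277 CPM to 318, 303 and 301 CPM, and Ctsb, cathepsin B, from 1338, 1316 and 1406 CPM to 1509.5, 1545 and 1468 CPM. Both were called under 8 of the 15, and the list kept 1 raised member without vehicle replicate 1, vehicle replicate 2 or any STING agonist replicate.

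Of 12 kept genes of the mitochondrial genome 6 were called raised, but 1 library set that count. The highest was mt-Co1, a subunit of cytochrome c oxidase, with 2065, 2737 and 2417 CPM in vehicle and 2290.2, 2664 and 4124 CPM with STING agonist. Replicate 3 stood apart there, and in that library genes of the mitochondrial genome took 1.25% of the reads against 0.681% to 0.854% in the other 5. Without it none of the 12 was called, and DESeq2 called none. The 81 nuclear genes of oxidative phosphorylation had 2 raised and 1 lowered, and the 82 ribosomal protein genes 5 raised and 1 lowered.

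Of the written lists, that of immediate early genes, which growth factors switch on within minutes, held the most lowered genes. Of 22 kept members 10 fell (Egr1, Fos, Fosl2, Jund, Ier2, Myc, Dusp1, Dusp4, Nr4a1 and Ccn1) and 2 rose (Atf3 and Klf6), and 10 were not called, with a median of -0.21. Egr1, an early growth response transcription factor, was at 2.7, 2.85 and 6.06 CPM in vehicle and 1.35, 1.75 and 2.66 CPM with STING agonist (-1.02 ± 0.21 (SE), adjusted p = 0.000253). Its highest vehicle value is that of replicate 3, and without that library the call was lost. Dusp4, a phosphatase that shuts off ERK and reports its activity, was the steadiest: 173, 179 and 179 CPM in vehicle and 127, 128 and 126 CPM with STING agonist, 0.717 of the vehicle level (-0.48 ± 0.059 (SE), adjusted p = 8.72e-13). The spread within each group was far smaller than the gap between them.

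Myc, the growth regulator, was at 37.3, 33.9 and 30.9 CPM and then 26.9, 27.1 and 21.5 CPM (-0.43 ± 0.088 (SE), adjusted p = 0.000157). Ccn1, a secreted matrix protein that serum induces, was at 47.3, 38.6 and 38.2 CPM and then 31.1, 27.9 and 33.8 CPM (-0.42 ± 0.08 (SE), adjusted p = 3.27e-05). In both genes the groups were apart, and Dusp4, Myc and Ccn1 were called under each of 15 other settings. Fos, partner of Jun in AP-1, measured 5.45, 6.17 and 8.46 CPM and 3.59, 4.82 and 5.67 CPM, with overlap between the groups (adjusted p = 0.0352). Nr4a1, an early-response nuclear receptor, measured 27.2, 27 and 29.2 CPM and 22.5, 23.3 and 20.9 CPM, and Dusp1, a phosphatase of p38 and JNK, 6.67, 7.99 and 8.62 CPM and 5.84, 5.47 and 5.61 CPM. The calls of Fos, Fosl2, Jund, Ier2, Nr4a1 and Dusp1 were lost with the GC adjustment, which left 4 of the list lowered, and 4 were left without vehicle replicate 3, 5 without STING agonist replicate 3 and 6 without either of the other STING agonist replicates. Fos, Nr4a1 and Dusp1 were singled out after their values were seen.

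IFNβ moved Egr1, Fos and Ccn1 the other way. Against the shared vehicle libraries IFNβ raised 8 members of the list and lowered 5, as did IFNγ. Of the genes kept, IFNβ raised 13.4% and lowered 12.2%, and IFNγ raised 12.6% and lowered 11.7%. IFNβ raised Egr1 by 0.98 ± 0.17 (SE), Fos by 0.85 ± 0.13 (SE) and Ccn1 by 0.38 ± 0.076 (SE) (adjusted p = 5.25e-07, 1.35e-08 and 7.87e-06), whereas IFNγ lowered Egr1 (-0.74 ± 0.20 (SE), adjusted p = 0.00181). Egr1 was lower with STING agonist than with IFNβ by -1.99 ± 0.20 (SE) on the log2 scale (adjusted p = 1.77e-19), and Ccn1 by -0.80 ± 0.079 (SE) (adjusted p = 5.03e-20). Fos was lower than with IFNβ by -1.36 ± 0.15 (SE) (adjusted p = 3e-17). Against IFNγ the difference was -0.28 ± 0.23 (SE) for Egr1 (adjusted p = 0.48) and -0.29 ± 0.16 (SE) for Fos (adjusted p = 0.226), and Ccn1 was lower by -0.39 ± 0.08 (SE) (adjusted p = 2.9e-05). Dusp4 went further down with the interferons: it was higher with STING agonist than with IFNβ by 0.45 ± 0.06 (SE) (adjusted p = 6.56e-12) and than with IFNγ by 0.45 ± 0.06 (SE) (adjusted p = 1.18e-11).

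**Figure D5:**
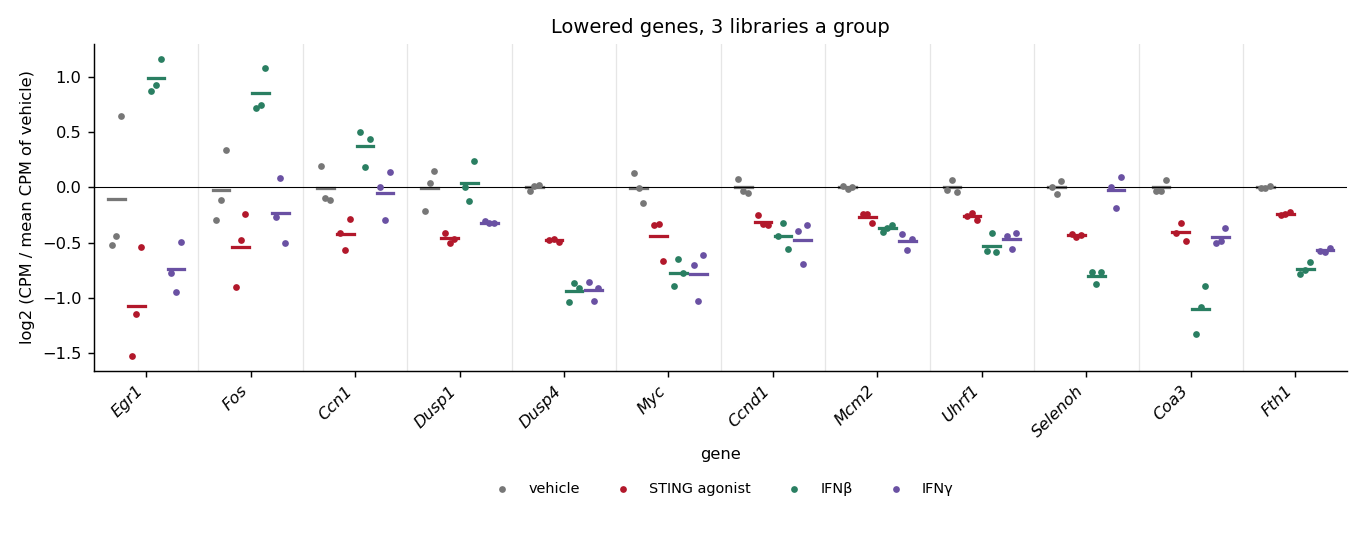
Log2 of the CPM of each library over the mean CPM of the vehicle libraries (vertical axis) for 12 lowered genes (horizontal axis) in B16F10 cells, 3 points a group with a bar at their mean. With STING agonist the 12 means lie below 0, and with IFNβ those of Egr1, Fos and Ccn1 lie above 0.

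Ccnd1, cyclin D1, which carries growth signals to the cell cycle, fell from 387, 358 and 355 CPM to 308, 291 and 289.5 CPM (-0.31 ± 0.055 (SE), adjusted p = 4.33e-06). Of 38 DNA replication genes 30 were not called, 8 fell (Mcm2, Mcm3, Mcm5, Mcm7, Rfc5, Rpa2, Ccne1 and Uhrf1) and none rose by edgeR, DESeq2 or an unadjusted p under 0.05, with a median of -0.14, and 35 of the 38 had a value below 0. Mcm2, a subunit of the replicative helicase, fell from 559.9, 551 and 555 CPM to 470.0, 469 and 443 CPM (-0.27 ± 0.052 (SE), adjusted p = 3.68e-05). Uhrf1, which brings the maintenance methyltransferase to new DNA, fell from 211, 225 and 209 CPM to 180.1, 183 and 175 CPM (-0.26 ± 0.056 (SE), adjusted p = 0.000403). For these 3 genes the groups did not overlap, and their calls held under each of 15 other settings. The other members called were smaller changes, such as -0.18 ± 0.055 (SE) for Mcm5 and -0.18 ± 0.055 (SE) for Mcm7, and with the GC adjustment 6 of the list were called, without Mcm3, Mcm5 and Mcm7. Without vehicle replicate 1, vehicle replicate 2 or STING agonist replicate 3 the list had 2 lowered, and without vehicle replicate 3 or STING agonist replicate 2 it had 4. Against the shared vehicle libraries IFNβ lowered 28 of the 38 and IFNγ 29, beside 12.2% and 11.7% of the genes kept. The 34 genes of mitosis gave 1 raised, Nusap1, a spindle protein, and 1 lowered, Ccnb2, cyclin B2, with a median of -0.0088.

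Ribosome biogenesis had 4 lowered of 30 and none raised by edgeR, DESeq2 or an unadjusted p under 0.05. They were Fbl, the methyltransferase fibrillarin of the nucleolus, Nop2, Ppan and Mybbp1a. Fbl went from 226, 201 and 211 CPM to 196, 170.2 and 175 CPM (-0.24 ± 0.057 (SE), adjusted p = 0.00237) and Nop2, an rRNA methyltransferase, from 302, 292 and 284 CPM to 254, 252 and 251 CPM (-0.21 ± 0.054 (SE), adjusted p = 0.00504). The groups did not overlap in any of the 4, but without vehicle replicate 1 none was called and without STING agonist replicate 1 or replicate 2 there were 2.

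The genes lowered with the smallest p had varied roles. Selenoh, a nucleolar selenoprotein, fell from 149.6, 143 and 155 CPM to 112, 109 and 111 CPM (-0.43 ± 0.059 (SE), adjusted p = 4.01e-10). Against the same vehicle, IFNβ gave -0.80 ± 0.06 (SE) and IFNγ -0.024 ± 0.058 (SE) for Selenoh. Midn, midnolin, which takes short-lived nuclear proteins to the proteasome, fell from 87.9, 89.9 and 81.1 CPM to 62.1, 71.5 and 62.6 CPM (-0.40 ± 0.067 (SE), adjusted p = 8.85e-07). Both groups of both genes were apart, which the rule for naming them required.

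Surface proteoglycans were among them. Gpc1, a heparan sulfate proteoglycan, fell from 230.3, 235 and 236 CPM to 191, 182 and 187 CPM (-0.32 ± 0.055 (SE), adjusted p = 1.57e-06), and Sdc3, a syndecan, from 91.5, 92.1 and 88 CPM to 66.1, 75.7 and 67.5 CPM (-0.37 ± 0.065 (SE), adjusted p = 3.31e-06). Gpc1 was lower with STING agonist than with IFNγ by -0.88 ± 0.055 (SE) on the log2 scale (adjusted p = 6.71e-43). Of 37 matrix and adhesion genes 4 fell, Itga9, Timp2, Cd44 and Cdh2, and none rose by edgeR, with 1 higher at an unadjusted p under 0.05 and 1 called raised by DESeq2. Itga9, an integrin alpha subunit, fell from 32.6, 32.7 and 35.6 CPM to 23, 24.8 and 26.6 CPM (-0.44 ± 0.086 (SE), adjusted p = 7.27e-05), and the list had 1 lowered without vehicle replicate 1, vehicle replicate 2 or STING agonist replicate 3 and 2 without STING agonist replicate 2.

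The other genes lowered with the smallest p had no list in common. Coa3, an assembly factor of cytochrome c oxidase, fell from 77, 77.3 and 82.3 CPM to 59.3, 63.1 and 56.5 CPM (-0.40 ± 0.069 (SE), adjusted p = 1.69e-06), and Phb2, a prohibitin of the inner membrane, from 777, 721 and 771 CPM to 640.4, 612 and 603 CPM (-0.29 ± 0.051 (SE), adjusted p = 3.55e-06). Sh2b3, an adaptor that restrains cytokine signalling, fell from 52.8, 53.2 and 52.5 CPM to 39.6, 42.6 and 38.5 CPM (-0.39 ± 0.074 (SE), adjusted p = 2.63e-05), and Mknk2, a kinase of eIF4E, from 164, 178 and 170.5 CPM to 133, 149 and 133 CPM (-0.31 ± 0.058 (SE), adjusted p = 3.27e-05). Smyd2, a lysine methyltransferase, measured -0.42 ± 0.072 (SE), Ipo4, an importin, -0.35 ± 0.066 (SE), Spcs3, a subunit of the signal peptidase, -0.33 ± 0.061 (SE), and Hnrnpa1, a splicing regulator, -0.27 ± 0.051 (SE) on the log2 scale. Each of these 8 was called under every one of 15 other settings. In each the 3 STING agonist libraries were below the 3 vehicle libraries, which the rule for naming them required. Among genes of at least 1 CPM the largest falls after Egr1 included Prr5, a component of mTORC2, from 7.44, 6.3 and 7.7 CPM to 4.23, 4.18 and 4.2 CPM (-0.76 ± 0.16 (SE), adjusted p = 0.000385), and Mapk11, p38 beta, from 6.83, 5.31 and 6.39 CPM to 4.49, 3.67 and 3.01 CPM (-0.73 ± 0.19 (SE), adjusted p = 0.00551). Mapk11 lost its call without vehicle replicate 1 or STING agonist replicate 3.

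A group of 3 noncoding annotations was called lowered with a wide spread in the treated libraries. Gm23935, annotated as a microRNA, measured 535, 521 and 570.0 CPM in vehicle and 409, 320.0 and 313 CPM with STING agonist (-0.64 ± 0.058 (SE), adjusted p = 1.81e-22), and Mir6236 26.2, 35.7 and 26 CPM and 23.3, 12.6 and 10.4 CPM (-0.95 ± 0.11 (SE), adjusted p = 6.51e-15). Gm42418, a long noncoding RNA that overlaps ribosomal RNA sequence and was named after its values were seen, measured 2800.1, 2628 and 2994 CPM and 2776, 1565 and 1085 CPM (-0.64 ± 0.074 (SE), adjusted p = 7.42e-14), with overlap between the groups. In the 3 the lowest value was that of STING agonist replicate 3, the library with most mitochondrial reads. These polyA libraries do not measure mature microRNAs, and the robust form of the edgeR fit called none of the 3. DESeq2 called neither Mir6236 nor Gm42418, and Gm42418 also lost its call with the filterByExpr minimum and with all 24 libraries in the fit.

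Few pigment cell genes were called. Of 25 pigment genes 1 fell and none rose by edgeR, with 4 higher at an unadjusted p under 0.05 and 1 called raised by DESeq2, and with a median of -0.011. The one was Mitf, the master transcription factor of melanocytes, at 294, 290.2 and 307 CPM in vehicle and 263, 262 and 252 CPM with STING agonist (-0.20 ± 0.054 (SE), adjusted p = 0.012). IFNβ, by contrast, gave 0.33 ± 0.053 (SE) for Mitf against the same vehicle libraries, and the direct difference from IFNβ was -0.52 ± 0.054 (SE) (adjusted p = 1.07e-18). Mitf lost its call without vehicle replicate 3 or STING agonist replicate 3, and with all 24 libraries in the fit. Of 20 neural crest and axon guidance genes 1 fell, Epha3, an ephrin receptor, from 108, 114 and 114 CPM to 94.7, 96.3 and 98.9 CPM (-0.21 ± 0.059 (SE), adjusted p = 0.0158).

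The same dose was given to 6694c2 cells for 24 h. Over the same genes edgeR called 0.155% raised and 0.171% lowered in 6694c2 cells. The lowered calls there included 7 of the 9 melanocyte markers and 9 of the 25 pigment genes, lists that overlap, and 0 of either rose. Their median log2 fold changes in 6694c2 cells were -1.96 and -0.97. These are genes of the other line, and whether a trace of B16F10 sequence differed between the 6694c2 groups was not tested. Of the 102 genes raised outside the interferon set in B16F10 cells none was called raised there, with 7 higher at an unadjusted p under 0.05, and of the 323 lowered 3 were called lowered there, with 12 lower at an unadjusted p under 0.05. With so few calls in 6694c2 cells, few could be shared. In 6694c2 cells the log2 fold change of Ddit3 was 0.11 ± 0.18 (SE) (adjusted p = 0.929), with a mean of 4.02 CPM in vehicle. That of Hmgcs1 was 0.11 ± 0.063 (SE) (adjusted p = 0.705), and that of Dusp4 0.24 ± 0.084 (SE) (adjusted p = 0.337). A call in 1 line and not in the other does not by itself show a difference, so the difference between the effects was tested for each gene. It was above 0, more positive in B16F10 cells, for 0.75% of the genes kept and below 0 for 0.616%. Those above 0 included 7 of the 9 melanocyte markers and 11 of the 25 pigment genes. The difference was above 0 for 19 of the 102 and below 0 for 74 of the 323, sides that follow in part from how these genes were chosen. It was below 0 for none of the 102 and above 0 for 4 of the 323.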

How the data were processed

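The values are whole-number read counts per gene as deposited by the authors, 1 table a library, made per the labels from paired-end polyA libraries with cutadapt 1.14, STAR 2.7.9a and Rsubread after fastqc 0.11.9 and multiQC 1.5. The annotation, strand setting and treatment of reads that map to several places are not given in the sources used here. Of 49056 genes also in GENCODE M21 (GRCm38), 91.4% had the same start, end and strand. Genes with 10 or more reads over the 24 libraries (21138) were fitted with edgeR 4.0.16 (R 4.3.3) over the 12 B16F10 libraries with a mean for each of 4 groups, TMM scaling and the quasi-likelihood test, with Benjamini-Hochberg adjustment over all genes tested and a threshold of 0.05. The code was tested on simulated data. CPM values are scaled by TMM. The line difference was an interaction over 24 libraries. The members and gene lists were chosen with earlier results of these data known. Genes were named by rule: among called genes without overlap at 1 CPM or more, the 12 smallest p raised outside the interferon set, the 16 smallest p lowered, the 8 largest changes of each kind, and up to 4 of each list by p, with Nqo1, Hmox1, Cdkn1a, Ddit3 and Hspa5 always. Genes of a list named only as passing or missing the test, and those said to be singled out, are outside it. Alternatives included DESeq2 1.42.0, which the authors used, other scaling and filters, other sets of libraries, a replicate block, and offsets by GC content added after seeing the data.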

Additional observations from a re-analysis of the deposited data

Results flagged for a closer look

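Of the 74 genes named, 29 differed between the lines in their response to STING agonist by the test of the difference of the effects (B16F10 minus 6694c2, log2 scale, edgeR, adjusted p under 0.05). Over the genes kept the difference was above 0 for 0.75% and below 0 for 0.616%. Those above 0 included 11 of 25 pigment genes, a list with 9 lowered in 6694c2 cells. The named genes were chosen largely by the B16F10 comparison, which is part of this difference, so the count follows in part from that choice. Among raised genes the difference was 0.75 for Chac1, 0.29 for Hmgcs1, 0.40 for Idi1, 0.47 for Fam129a, 0.52 for Nabp1, 0.49 for Snrnp27 and 0.48 for Cycs. Among immediate early genes it was -1.42 for Egr1, -0.71 for Dusp4, -0.61 for Myc, -0.59 for Dusp1, -0.60 for Ier2 and -0.47 for Jund. In those 6 the fitted effect was below 0 in B16F10 cells and above 0 in 6694c2 cells, where none of them was called. For redox genes it was -0.60 for Nqo1, -0.39 for Fth1 and -0.30 for Txnrd1. For Nqo1 the effect was -0.05 ± 0.12 (SE) in B16F10 cells and 0.56 ± 0.085 (SE) in 6694c2 cells.

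Among other lowered genes the difference was -0.37 for Mcm2, -0.65 for Midn, -0.36 for Gpc1, -0.40 for Smyd2, -0.61 for Coa3, -0.31 for Hnrnpa1, -0.42 for Sh2b3, -0.35 for Ipo4, -0.45 for Mknk2, -0.71 for Prr5 and -0.86 for Mapk11. It was -1.01 for Gm23935 and -1.67 for Mir6236, whose treated libraries varied widely. The smallest adjusted p was that of Dusp4, 3.42e-05. The GC trend between treated and vehicle libraries was seen in B16F10 cells, and its part in these differences was not tested.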

How the results depend on the processing

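Against 256 raised, 323 lowered and 102 raised outside the interferon set, the count of lowered genes was 205 with the filterByExpr minimum and 199 with GC-adjusted offsets, which gave 182 raised outside the set. With only the 6 libraries in the fit the counts were 462, 627 and 301, and with all 24 libraries 151, 105 and 38. With no limit on the 6694c2 level 408 rose, 207 of them outside the set, and with the interferon set cut to the written list 166 rose outside it. DESeq2 gave 234, 259 and 97. Leaving out 1 library at a time gave 158 to 226, 127 to 218 and 45 to 83. The ATF4 list had 6 raised and 1 lowered: 12 raised with only the 6 libraries and 12 with GC-adjusted offsets, 0 lowered with all 24 libraries and 0 with GC-adjusted offsets, and 3 to 5 raised and 0 to 1 lowered with 1 library left out. The p53 list had 3 raised: 0 with DESeq2, 0 with filterByExpr, 0 with all 24 libraries, 5 with only the 6 libraries, and 0 to 1 with 1 library left out. The NRF2 list had 2 lowered, and 4 with the replicate block as with only the 6 libraries. The metal list had none raised, 2 with only the 6 libraries and 1 with GC-adjusted offsets, and the heat shock list 1 raised with only the 6 libraries. The cause of these moves was not tested, other than that leaving out a library leaves fewer samples.

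Replicate numbers did not pair the samples: the correlations of deviations of same-numbered libraries were 0.041, -0.0030 and 0.029. They share only a number, and with the replicate block 280 rose, 372 fell and 123 rose outside the set. The highest correlation of any pair was 0.061, between vehicle replicate 2 and STING agonist replicate 3. STING agonist replicate 2 correlated best with vehicle replicate 1, at 0.043. Of 74 genes named, 68 were called, and 36 of these under each of 15 alternatives. Of 1110 values under alternatives none reversed sign with a call, 176 lost a call and 13 gained one. Depth was 15543131 to 24019834 reads a library, and the smallest changes called were 0.16 and -0.16 on the log2 scale.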
